A study of Mus musculus with 16 samples.

Results

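A set of 10 genes that move membrane-anchored proteins into the primary cilium was followed across the Foxn3, Foxn4 and Rfx3 peak lists of the embryonic mouse retina. They are the small GTPases Arl3, Arl13b, Rab8a, Rab23 and Rab28, the Arl3-binding protein gene Arl2bp, the lipid-cargo carriers Pde6d, Unc119 and Unc119b, and the phosphoinositide phosphatase gene Inpp5e. They were named for their function and not picked by a measured value, but earlier results of these data were known at that choice. They make up 10 of the 21887 protein-coding genes of the RefSeq gene table. For each gene, every peak was taken whose midpoint lay inside the gene or within 10 kb of either end, and a peak within 1 kb of an end was treated as a gene-end peak.

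The primary cilium makes no protein of its own, so everything in it is imported. Proteins held to membranes by a lipid tail cannot diffuse there freely: Pde6d shields prenyl tails, and Unc119 and Unc119b shield myristoyl tails. Arl3 in its GTP-bound form strips the cargo from these carriers inside the cilium, and Arl13b, which sits in the ciliary membrane, loads Arl3 with GTP. Inpp5e and Rab28 carry prenyl tails and are cargoes of Pde6d. Rab8a acts in vesicle delivery at the ciliary base, and Rab23 restrains Hedgehog signalling. In photoreceptors, whose outer segment is a modified cilium, the same carriers serve phototransduction proteins. Foxn3 and Foxn4 are forkhead transcription factors, and Rfx3 belongs to the RFX family, known for binding the X-box of ciliary gene promoters.

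The lists came from CUT&RUN, in which an antibody brings a nuclease to its target and the DNA freed by cutting is sequenced. Retinas of outbred CD-1 embryos at embryonic day 16 were pooled, and 300000 cells went into each assay. Antibody libraries numbered 4 for Foxn3 (in 2 experiments), 2 for Foxn4 and 2 for Rfx3, and 8 further libraries used immunoglobulin G, rabbit for Foxn3 and Rfx3 and mouse for Foxn4. Nuclease digestion lasted 1 h, but about 12 h for Foxn4 and mouse IgG, so antibody and digestion time cannot be told apart in any comparison with Foxn4. Each antibody has 1 deposited list: 2794 peaks for Foxn3, 2956 for Foxn4 and 3981 for Rfx3. How its libraries were combined is not stated, so no value below has a spread between replicates, no test was made, and the IgG background was not analysed here.

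Foxn3 peaks lay at an end of 5 of the 10 genes (Arl3, Arl13b, Arl2bp, Rab8a and Rab28), against 8.82% of all protein-coding genes. Rfx3 peaks lay at an end of 6, the same 5 and Unc119b, against 10.6%. The Foxn4 list had such a peak at Rab8a only, 1 of 10 genes against 4.84%. Foxn3 and Rfx3 together marked 5 of 10 genes (7.56% of all genes), and the 3 lists together 1 of 10 (3.06% of all genes). Among all protein-coding genes, 1654 of the 1930 Foxn3-bound genes also had an Rfx3 gene-end peak. Inpp5e, Pde6d, Unc119 and Rab23 had no peak of any list inside the gene or within 10 kb. By role, gene-end peaks were listed for Arl3 and Arl13b, for Arl2bp, for 2 of the 3 Rab genes and for 1 of the 3 carriers, and not for the phosphatase.

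**Figure D1:**
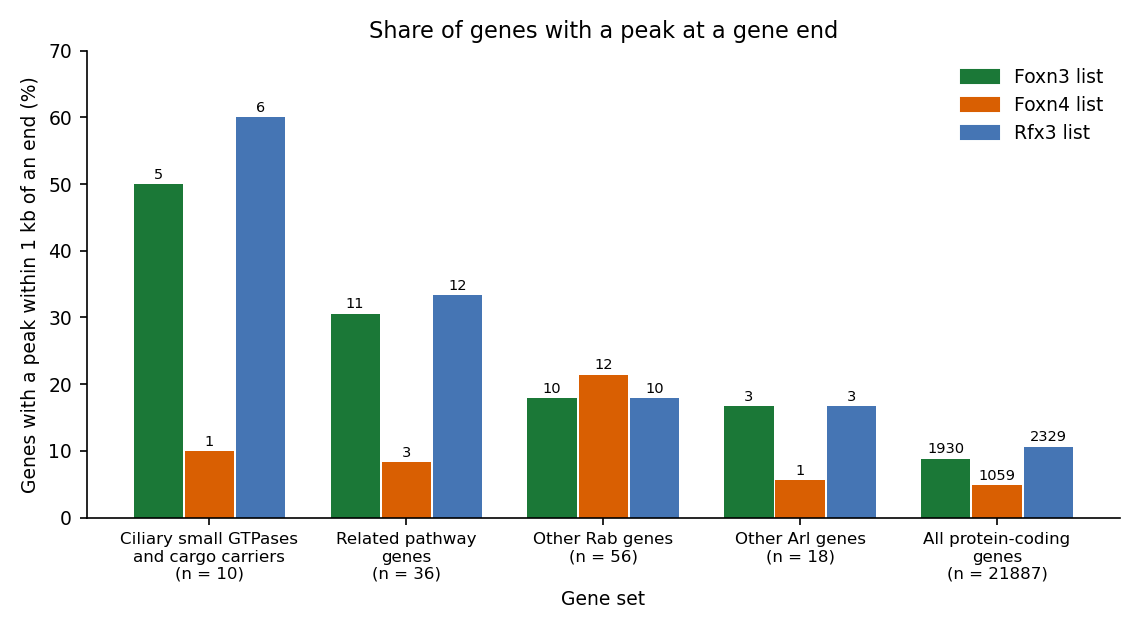
Share of genes with a peak midpoint within 1 kb of an annotated gene end (vertical axis, %) in 5 gene sets (horizontal axis), with bars coloured by peak list and the number of genes above each bar. The 10 ciliary GTPase and carrier genes reach 50% in the Foxn3 list and 60% in the Rfx3 list, against 8.82% and 10.6% of all protein-coding genes. The related pathway genes and the other Rab and Arl genes share some members.

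The sequences just before the start site are shown for the bound genes whose promoter window met each of their gene-end peaks, and for Unc119 as an unbound contrast. Each run is the 250 bases before the RefSeq start site (build GRCm38.p6, the assembly of mm10), read 5′ to 3′ on the strand of the gene. Capitals mark the RFX half-site GTTGCC and the short forkhead site GACGC, on either strand, so that the latter can also read GCGTC.
Arl13b (Foxn3 and Rfx3 peaks, chr16:62847041-62847290, minus strand): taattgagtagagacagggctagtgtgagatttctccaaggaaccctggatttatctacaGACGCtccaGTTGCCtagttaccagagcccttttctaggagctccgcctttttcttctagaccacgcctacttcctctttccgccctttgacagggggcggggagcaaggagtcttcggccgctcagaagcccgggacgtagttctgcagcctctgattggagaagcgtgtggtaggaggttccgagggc
Rab28 (Foxn3 and Rfx3 peaks, chr5:41708180-41708429, minus strand): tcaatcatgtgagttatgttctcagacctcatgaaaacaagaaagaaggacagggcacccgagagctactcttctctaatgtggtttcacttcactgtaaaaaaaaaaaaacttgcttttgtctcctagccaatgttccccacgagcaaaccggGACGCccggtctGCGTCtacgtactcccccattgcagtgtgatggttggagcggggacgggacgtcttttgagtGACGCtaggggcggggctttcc
Rab8a (peaks of all 3 lists, chr8:72160950-72161199, plus strand): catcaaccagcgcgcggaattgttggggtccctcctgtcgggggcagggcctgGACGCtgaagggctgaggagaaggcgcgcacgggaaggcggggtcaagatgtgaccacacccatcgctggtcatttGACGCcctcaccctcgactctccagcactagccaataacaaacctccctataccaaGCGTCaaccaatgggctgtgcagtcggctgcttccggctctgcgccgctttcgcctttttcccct
Arl3 (Foxn3 and Rfx3 peaks, chr19:46573183-46573432, minus strand): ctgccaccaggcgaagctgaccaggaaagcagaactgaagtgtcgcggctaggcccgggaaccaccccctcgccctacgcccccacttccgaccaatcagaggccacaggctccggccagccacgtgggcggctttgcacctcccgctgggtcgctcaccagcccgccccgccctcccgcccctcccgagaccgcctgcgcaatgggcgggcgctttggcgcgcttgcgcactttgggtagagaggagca
Unc119b (Rfx3 peak over the part nearest the start, chr5:115134976-115135225, minus strand): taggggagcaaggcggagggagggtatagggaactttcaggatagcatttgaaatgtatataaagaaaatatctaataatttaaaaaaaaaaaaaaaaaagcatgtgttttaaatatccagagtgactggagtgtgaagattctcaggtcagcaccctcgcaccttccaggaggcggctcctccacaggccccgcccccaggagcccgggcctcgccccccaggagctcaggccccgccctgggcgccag
Unc119 (no peak, first of 3 start sites, chr11:78343245-78343494, plus strand): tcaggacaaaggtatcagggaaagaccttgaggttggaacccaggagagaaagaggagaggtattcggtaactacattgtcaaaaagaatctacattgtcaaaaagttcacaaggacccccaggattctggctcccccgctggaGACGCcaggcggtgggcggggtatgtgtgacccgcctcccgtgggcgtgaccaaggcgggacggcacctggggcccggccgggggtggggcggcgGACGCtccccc

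Arl13b held GTTGCC 181 bp upstream of its start site, inside both of its peaks, 43.5 bp from the Foxn3 midpoint and 28 bp from the Rfx3 midpoint. A GACGC begins 190 bp upstream in the same promoter, 53 bp from the Foxn3 midpoint and 18.5 bp from the Rfx3 midpoint. These matches therefore sit side by side near the centres of the 2 peaks. Another GACGC of Arl13b lay 33 bp downstream of the start site, inside both peaks. It was 170 bp from the Foxn3 midpoint and 241.5 bp from the Rfx3 midpoint. Rab28 had 3 copies of the short forkhead site, at 96, 84 and 22 bp upstream, all covered by its Foxn3 and Rfx3 peaks. Rab8a also had 3, at 197, 121 and 65 bp upstream, all covered by the peaks of the 3 lists. The middle copy was 3 bp from the Rfx3 midpoint and 23.5 bp from both the Foxn3 and the Foxn4 midpoint. The other Rab8a copies lay 32.5 to 99.5 bp from these midpoints. The peaks of Rab28 and Rab8a spanned their whole windows, so any match there would be covered. Neither the number of copies nor the distance to a midpoint was compared with other promoters. Arl3 and Unc119b held neither motif in their windows, although both had Rfx3 peaks there. The unbound Unc119 promoter held GACGC at 106 and 11 bp upstream, so the short site also occurs without a peak.

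Over the 10 genes, 14 promoter windows of 300 bases (250 before and 50 after a start site) were searched on both strands for 4 motifs, and no window held the X-box consensus, a pair of RFX half-sites. None held the forkhead site GTAAACA. The windows of Arl2bp and Unc119b did not hold the midpoints of the peaks at these genes, so those peak centres were not searched. The half-site GTTGCC was found for 2 of 10 genes, Arl13b and Pde6d, and lay 17 bp downstream of the start site in the unbound Pde6d. The short forkhead site was found for 6 of 10 genes: Arl13b, Arl2bp, Rab8a and Rab28 with peaks, and Unc119 and Rab23 without. In Arl2bp the match lay in the Rfx3 peak only. Counted by window, GTTGCC was in 2 of 14 and GACGC in 7 of 14. Across 21263 promoter windows of protein-coding genes, GTTGCC was present in 12.6%, the X-box in 1.5%, GTAAACA in 3.01% and GACGC in 33.4%. GTTGCC was present in 27.8% of the 1427 windows with a Foxn3 midpoint, 16% of the 776 with a Foxn4 midpoint and 28.2% of the 1582 with an Rfx3 midpoint. For the X-box these shares were 8.9%, 2.96% and 9.61%, and for GTAAACA 1.96%, 1.29% and 2.21%. GACGC was present in 57.3%, 58.2% and 56.3% of the same windows, a raised share in all 3 lists, the Rfx3 list included. Median G+C content was 61%, 62% and 61.7% in these windows, against 56.3% of all windows, and its part in the share of GACGC was not tested. An X-box can overlap GTTGCC, and these matches describe letters, not occupied sites.

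Arl3, the GTPase that releases cargo in the cilium, spans 46531109 to 46573182 on chromosome 19 (minus strand). Its Foxn3 peak spanned 46573037 to 46573449 and its Rfx3 peak 46572958 to 46573536, with midpoints 4 bp apart and 61 and 65 bp upstream of the gene's 5′ end. The authors' score, used only for rank within a list, was higher at Arl3 than at 49% of Foxn3 peaks and 70.4% of Rfx3 peaks. Both peaks are shared with Sfxn2, a mitochondrial sideroflexin gene on the opposite strand whose end lies 143 bp from the 5′ end of Arl3. The 2 genes cannot be told apart as owners of these peaks, and Sfxn2 was the only other gene of any biotype with an end within 1 kb of any of the 13 peaks in the windows of the 10 genes.

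Arl13b, the activator of Arl3, spans 62793308 to 62847055 on chromosome 16 (minus strand). Its Foxn3 peak, 62846980 to 62847370, was 391 bp wide and lay wholly inside the Rfx3 peak, 62846980 to 62847513. Their midpoints were 120 and 191.5 bp upstream of the 5′ end and 71.5 bp apart. With a score of 91.6 against a list median of 29.9, the Foxn3 peak ranked above 84.9% of its list, the highest of the 5 genes. The Rfx3 peak scored 273 against a list median of 76, above 85.3%. Arl13b thus stood at nearly the same rank in both lists.

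Arl2bp encodes a protein that binds GTP-bound Arl2 and Arl3 and spans 94666600 to 94674457 on chromosome 8 (plus strand). Its Rfx3 peak, 94666331 to 94666977, scored 814 and ranked above 97.4% of the Rfx3 list, the highest of the 6 genes. The Foxn3 peak at 94666522 to 94666756 was the narrowest of the set at 235 bp, against a list median of 384 bp, and ranked above 74%. Midpoints lay 39 bp (Foxn3) and 54 bp (Rfx3) inside the gene's 5′ end. The promoter table places the start site 491 bp downstream of that end, so the window it gives missed the Foxn3 peak and met the Rfx3 peak over 137 of its 300 bases. Its sequence is not printed for that reason.

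Among the lipid-cargo carriers, binding was recorded only at Unc119b, and only by Rfx3. Unc119b (chromosome 5, 115122566 to 115134975, minus strand) had an Rfx3 peak at 115134720 to 115135106, with its midpoint 62 bp inside the 5′ end and a rank above 75.1% of the list. The nearest Foxn3 peak was 23.6 kb from an end and lay 394.5 bp from an end of Mlec, and the nearest Foxn4 peak was 166 kb away. Its paralogue Unc119 (chromosome 11, 78343495 to 78349164) had its nearest peak 42 kb away, an Rfx3 peak at an end of Spag5. For Pde6d (chromosome 1, 86543012 to 86582785) the nearest peaks of the 3 lists were 55.4 to 55.5 kb away. Pde6d has its 5′ end 139 bp from an end of Cops7b, on the opposite strand, and no list had a peak there.

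Inpp5e, whose product removes a phosphate from phosphoinositides of the ciliary membrane, spans 26396249 to 26409244 on chromosome 2. The nearest peaks of all 3 lists were 36.1 to 36.4 kb from its ends, within 1 kb of the far end of the neighbouring gene Sec16a. Sec16a also has an end 187 bp from the 5′ end of Inpp5e, where no list had a peak.

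Rab8a, which acts in vesicle traffic to the ciliary base, was the gene where the 3 lists met. It spans 72161200 to 72181366 on chromosome 8 (plus strand). Peaks lay at 72160784 to 72161331 (Foxn3), 72160861 to 72161348 (Foxn4) and 72160796 to 72161372 (Rfx3), with midpoints 142.5, 95.5 and 116 bp upstream of the 5′ end. Overlaps covered at least 96.5% of the shorter peak of each pair. The ranks differed between the lists. The Foxn4 peak was above 91.5% of its list, the Rfx3 peak above 48.6% and the Foxn3 peak above 31%. The last 2 are the lowest ranks of any gene-end peak among the 10 genes in the Rfx3 and Foxn3 lists.

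Rab28, a farnesylated GTPase linked to inherited cone-rod disease, spans 41624973 to 41708193 on chromosome 5 (minus strand). Its Foxn3 peak, 41708108 to 41708602, ranked above 66.4% of the list, and its Rfx3 peak, 41707897 to 41708598, was the widest of the set at 702 bp and ranked above 84.4%. Midpoints were 162 and 54.5 bp upstream of the 5′ end and 107.5 bp apart, the largest separation of the 5 genes. A Foxn4 peak at 41715330 to 41715782 lay 7363 bp upstream, away from both and with no other gene end within 1 kb. It scored higher than only 0.71% of Foxn4 peaks and was the single peak of the 13 in the gene windows that lay more than 1 kb from an end. On the near side of that limit the farthest midpoint was the Rfx3 peak of Arl13b, at 191.5 bp. Rab23 (chromosome 1, 33719896 to 33742564) was the most isolated gene: its nearest peak was a Foxn4 peak 697 kb away, and the nearest Rfx3 and Foxn3 peaks were 1367 and 2127 kb away.

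**Figure D2:**
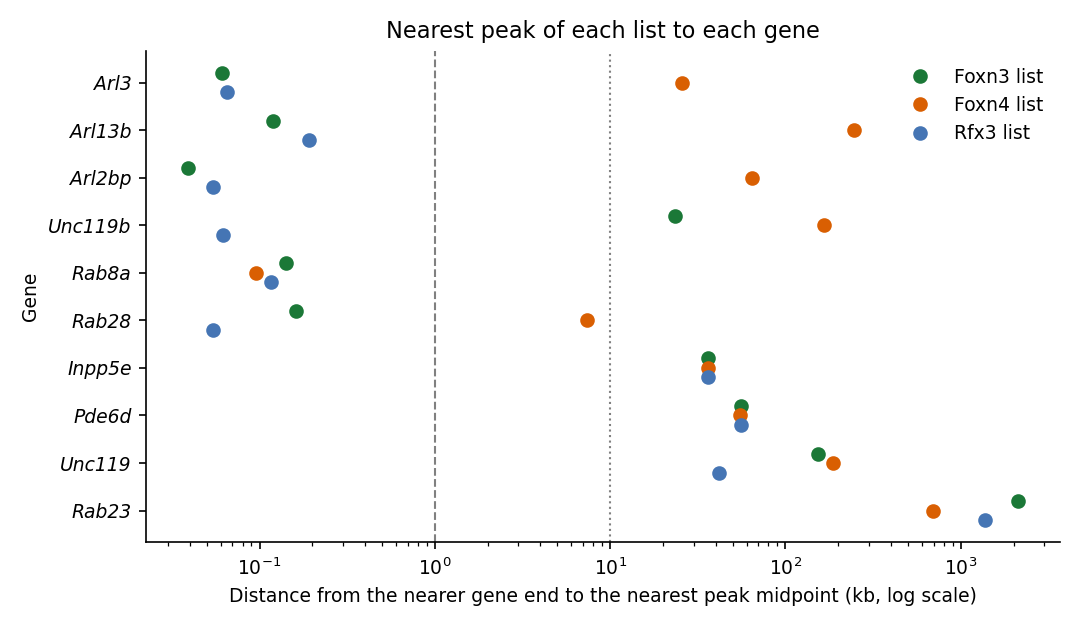
Distance in kb, on a log axis, from the nearer end of each of the 10 genes (vertical axis) to the nearest peak midpoint of each list (coloured points). The dashed line marks 1 kb and the dotted line 10 kb. There are 6 genes with a point left of 1 kb, and the 4 genes at the bottom have none closer than 36.1 kb.

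All 12 gene-end peaks covered the annotated 5′ end of their gene, and none lay at a 3′ end. At Arl2bp, however, the start site of the promoter table lies 491 bp inside that end, and neither peak reached it. With strand taken from the promoter table, 77.1% of 1630 Foxn3-bound genes, 65.1% of 912 Foxn4-bound genes and 80.2% of 1942 Rfx3-bound genes had a peak over the 5′ end. The median distance from the 5′ end to the nearest midpoint was 120 bp for the 5 Foxn3 genes, against 106.5 bp for all Foxn3-bound genes. For the 6 Rfx3 genes it was 63.5 bp, against 125.25 bp. Position at the annotated 5′ end of the gene was thus the usual one in these lists. Exons were not examined, so the exonic or intronic part of each peak is not given.

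**Figure D3:**
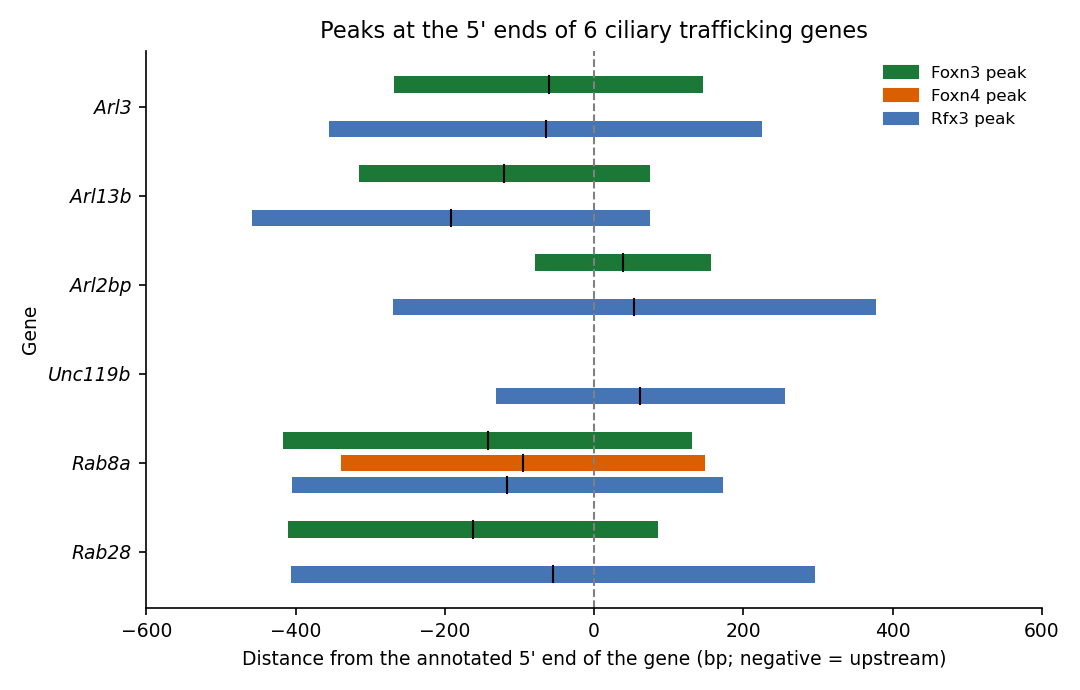
Extent of each gene-end peak relative to the annotated 5′ end of the gene (horizontal axis, bp, negative values upstream) for the 6 genes with peaks (vertical axis). Bars are peaks coloured by list, black ticks are their midpoints, and the dashed line is the 5′ end. Every bar crosses the dashed line, and Rab8a is the only gene with 3 bars.

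Scores placed these peaks above the middle of their lists in most cases. The median rank of the 5 Foxn3 peaks was above 66.4% of the list (range 31% to 84.9%), against 53.8% for the best gene-end peak of all 1930 Foxn3-bound genes (quartiles 28.8% and 80%). For the 6 Rfx3 peaks it was 79.7% (48.6% to 97.4%), against 47.8% for 2329 Rfx3-bound genes (quartiles 20.9% and 79.6%). Arl2bp, Arl13b and Rab28 lay above the upper quartile in the Rfx3 list, and Arl13b alone did so in the Foxn3 list. Peak width followed the lists, with medians of 413 bp (Foxn3) and 578 bp (Rfx3) for the genes described here and 385 and 499 bp for all bound genes.

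**Figure D4:**
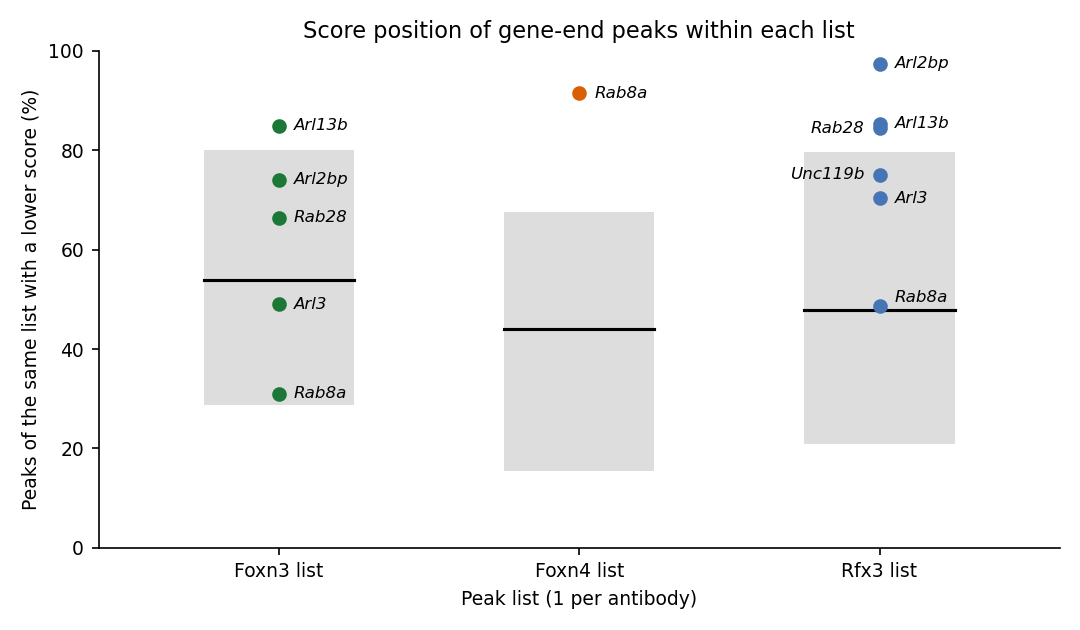
Share of peaks of the same list with a lower score (vertical axis, %) for each gene-end peak of the 10 genes (points, labelled by gene) in the 3 lists (horizontal axis). Grey boxes span the quartiles and black lines mark the median over all genes bound in that list. Rab8a is at 91.5% in the Foxn4 list but at 31% in the Foxn3 and 48.6% in the Rfx3 list.

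The wider windows added only the distal Foxn4 peak of Rab28. The gene or its 10 kb flanks held a Foxn3 peak at 5 of 10 genes, against 15.2% of all genes, a Foxn4 peak at 2 of 10 (Rab8a and Rab28), against 10.5%, and an Rfx3 peak at 6 of 10, against 19.0%. No peak of any list was present at 4 of 10 genes, against 76.1% of all genes.

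Other genes of the same traffic were taken from 4 functional lists with 36 genes, none of them among the 10. Foxn3 peaks lay at an end of 11 (8.82% of all protein-coding genes), Rfx3 peaks at 12 (10.6%) and Foxn4 peaks at 3 (4.84%). No gene-end peak was listed for 24 of the 36, against 19079 of all 21887 protein-coding genes. All 11 Foxn3 genes were also Rfx3 genes, and Rab3ip, the gene of a Rab8 activator, had Rfx3 only. Over all protein-coding genes, 1654 of the 1930 Foxn3-bound genes were also Rfx3-bound, so such sharing was usual in these lists. All 3 Foxn4 genes had the other factors too, as did 669 of the 1059 Foxn4-bound genes among all protein-coding genes. They were Evi5l, a GTPase-activating protein gene, Ift27, a Rab-like subunit of the transport trains, and Rab11b, a recycling-endosome GTPase. Rab11b ranked low, above 5.18% of Foxn4 and 21.9% of Rfx3 peaks, and the Foxn3 peak of Ift27 ranked above 45.7%. Only Evi5l had all 3 peaks at or above the median score of their lists. Among 5 further genes of the Arl3 cycle, Cfap36 and Arl6 had Foxn3 and Rfx3 peaks, and Arl2, Arl13a and Rp2 (the Arl3 GTPase-activating protein) had no gene-end peak. Cfap36, whose product also binds Arl3, ranked above 97.2% of Foxn3 and 98.5% of Rfx3 peaks. Of 8 lipidated-cargo genes, Rpgr had Foxn3 and Rfx3 peaks at an end. Cys1 and the photoreceptor genes Gnat1, Gnat2, Grk1, Pde6a, Pde6b and Pde6c had no gene-end peak. Gnat2 had an Rfx3 peak farther from its ends, in the gene or within 10 kb. The Rab list counted 7 Rfx3 and 6 Foxn3 genes of 19, and the phosphoinositide list 2 of 4 in both (Tulp3 and Pip5k1c).

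The 56 other Rab genes (6 of them on those lists) had a Foxn3 peak at 10, a Foxn4 peak at 12 and an Rfx3 peak at 10. Foxn3 and Rfx3 shared 7, and 39 had no gene-end peak. For all protein-coding genes the shares were 8.82% (Foxn3), 4.84% (Foxn4), 10.6% (Rfx3) and 7.56% (Foxn3 with Rfx3). Of the 18 other Arl genes, 3 had Foxn3, 3 had Rfx3 and 1 had Foxn4 peaks. Arl2, Arl6 and Arl13a are also on the pathway lists, and Arl6 is among the bound Arl genes. The share in the Rfx3 list was therefore 60% for the ciliary GTPase and carrier genes, 33.3% for the related pathway genes, 17.9% for the other Rab genes and 16.7% for the other Arl genes. In the Foxn4 list the order differed: 21.4% of the other Rab genes, 10% of the 10 genes, 8.33% of the pathway genes and 5.56% of the other Arl genes. These are counts over small sets chosen with earlier results known, and the differences between sets were not tested.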

How the data were processed

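CUT&RUN libraries of mouse retina were processed by the submitters with cutadapt, Bowtie2, UMI-tools, bedtools and SEACR on mm10, per the submitters' processing notes, which give no versions, roles or order. The threshold, the use of IgG and the combining of libraries are not given in the sources used here. The deposited lists give position and a score per peak. That score is the authors' own value, of unstated scaling, and ranks peaks within 1 list only. Read depth is unknown, so no value has an interval for depth.

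Coordinates count from 1. Genes came from a RefSeq table of GRCm38.p6, and strand, start sites and promoter sequence from a RefSeq promoter table of the same build, which matched all 10 genes. A gene counted as bound if either of its ends was at most 1 kb from the middle of a peak. Peaks overlapping by at least 1 bp were called shared. Alternatives were any base of the peak, 500 bp, 5 kb, peaks at or above the median score and a stricter overlap. Named are all 10 genes, neighbours sharing a peak, and pathway genes bound in every list or by Foxn4, with others added after their values were seen. The 36 pathway symbols used all matched; 1 further gene is not reported here. The genes, lists and motifs were chosen with earlier results of these data known. The peak lists hold no expression, so the retinal label was not checked. Peak assignment was tested on simulated peaks, and motif search on random sequence with planted GTTGCC only. The X-box, GTAAACA and GACGC were not part of that check. Python 3.11.15, pandas 2.3.3 and matplotlib 3.10.9 were used.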

Additional observations from a re-analysis of the deposited data

How the results depend on the processing

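Alternatives were run for 11 counts, giving 43 values, of which 39 stayed within 1.5 times the count reported. The counts of the 10 genes with gene-end peaks stayed at 5 (Foxn3), 1 (Foxn4) and 6 (Rfx3) at 500 bp, at 5 kb, with any base of the peak and, chosen after seeing the data, within 1 kb of an annotated start site. With only peaks at or above the median score of their list they were 4, 1 and 5, because the Rab8a peaks of Foxn3 and Rfx3 score below it. In that setting the genes with overlapping peaks of all 3 lists fell to 0, the Foxn4 peaks in the gene windows to 1 and the Foxn3-bound pathway genes to 6. The Rfx3-bound pathway genes fell from 12 to 8 and the Foxn4-bound ones from 3 to 2. These changes sit at the limit of 1.5 times and were counted as within it. With 5 kb on either side the Foxn4 peaks in the windows were also 1, since the peak upstream of Rab28 lies farther out. The lists give no depth and no values per library, so absence of a peak says only that none was listed. No paired analysis was possible because each antibody has a single list.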

Other observations

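Among the related pathway genes the rank of a peak differed widely in places between the Foxn3 and Rfx3 lists. Arl6, the GTPase that recruits the BBSome, ranked above 16.2% of Foxn3 peaks and 75.7% of Rfx3 peaks. Rpgr, a prenylated transition zone gene of chromosome X, had the reverse order, 77.6% in the Foxn3 list and 28.5% in the Rfx3 list. Pip5k1c, which makes the phosphoinositide that Inpp5e removes, ranked low in both, at 2.43% and 9.75%. These 3 genes were chosen after their values were seen.

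Rab34, a GTPase of early ciliogenesis, had no gene-end peak, but a Foxn3 peak at 78189390 to 78189575 on chromosome 11 lay 1055.5 bp from one of its ends, just outside the limit of 1 kb. It is also the Foxn3 peak nearest to Unc119, at 154 kb.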
